A study of Mus musculus with 10 samples.

Results

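The day 20 cells (d20) are the last time point of a single-cell course in which mouse embryonic fibroblasts were turned by chemicals into cells that resemble extraembryonic endoderm (XEN-like cells). They were chosen by their name in the count table, which opens with d20 for 72 of 808 cells. Of these, 38 had at least 4000 detected genes and are described here, and the other 34 served as a check. The fibroblasts came from ICR mouse embryos, and all time points after d0 carry the one treatment that the labels give, C6FAE. This stands for CHIR99021, an inhibitor of the kinase GSK3, the compound abbreviated 6, which blocks the TGF-beta receptor, Forskolin, which raises cyclic AMP, AM580, an agonist of retinoic acid receptors, and EPZ004777, an inhibitor of the histone methyltransferase Dot1l. The labels and the account of the single-cell course name C6FAE, whereas the study's general protocol for XEN-like cells lists valproic acid as well. Cells were picked by hand after digestion. The d0 cells (72 kept) were untreated fibroblasts, the d12 cells (67 kept) came from the culture at day 12, and the d12c cells came from colonies of that day. Labels give 12 days in reprogramming medium and the general protocol up to 20 days, and neither says whether the cells of 1 time point share a colony or a passage.

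Extraembryonic endoderm arises in the blastocyst as the primitive endoderm, under the transcription factors Gata6, Gata4 and Sox17. It gives rise to visceral endoderm, an epithelium that takes up and carries nutrients for the embryo, and to parietal endoderm, which lays down the thick basement membrane of the yolk sac. XEN cell lines derived from it hold features of both layers.

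Values are UMIs, unique molecular identifiers that tell apart the RNA molecules a cell contributed, scaled so that every cell has the same total (CPM). The 38 cells had a median of 195480 UMIs (27845 to 570418) and of 5128 detected genes (4024 to 7256), and the d0 cells had a median of 344196 UMIs. Spike-in RNAs took a median of 19.3% of the counts of a d20 cell and 3.28% of those of a d0 cell. Per spike-in UMI there were 4.19 UMIs of the cell at d20 and 29.5 at d0, and the amount of spike-in added is not stated, so less RNA per cell and more spike-in cannot be told apart. Just inside the limit lay cells with 4024, 4056 and 4069 detected genes, and just outside it cells with 3996, 3923 and 3918. The cells could not be assigned to the 10 sequenced batches, so the table was treated as 1 sample, no test between groups was made, and intervals (95%, exact) cover counting error only. Spike-ins showed that even these intervals are too narrow for UMIs, by the values given with the spread among cells.

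A low level of the most abundant d20 transcripts was also read in cells of another kind, and this bears on every share of cells with a UMI. At d12 (a median of 768565 UMIs), *S100g* was present in all 67 cells. In 62 of them it lay between 68.3 and 342 CPM with a median of 110, and in the other 5 between 2223 and 21370 CPM, a range that d20 cells share. Group medians of *S100g* before d12 were at most 3.01 CPM. The d12 medians of other genes that were high at d20 were likewise a small share of their d20 means, but not the same share. It was 0.607% for *S100g*, 0.707% for *Aqp8*, 0.576% for *Sox17*, 0.460% for *Car4* and 0.875% for *Srgn*. For *Cyp26a1* it was 0.247%, for *Cited1* 0.328%, for *Krt8* 3.345% and for *Ifitm1* 7.40%, and the d12 median of *Igfbp1* was 0. A source shared by cells of d12 was not tested. The lowest d20 cells reached 0.580% of the d20 mean for *Aqp8* and 2.88% for *S100g*, so shares of d20 cells with a UMI are given below beside the share with at least 10% of the mean CPM.

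The 5 markers of the label were read at high levels in d20 cells and were absent or nearly absent at d0. *S100g* (ENSMUSG00000040808, mm9 chrX:159399924-159402531), which encodes the calcium-binding protein calbindin D9k, had the most UMIs of all genes, with a lowest value of 529, a median of 17434 and a highest value of 41408 CPM. *Sox17* (chr1:4481009-4486494), the endoderm transcription factor, ran from 39.4 over a median of 837 to 2223 CPM. Both were high in nearly every cell, since 35 of 38 cells for *S100g* (92.1%, 78.6 to 98.3) and 36 of 38 for *Sox17* (94.7%, 82.2 to 99.4) reached 10% of the mean. *Aqp8* (chr7:130605808-130611517), a water channel, ran from 7.86 over 513 to 12478 CPM, and *Car4* (chr11:84771288-84779546), a carbonic anhydrase anchored at the cell surface, from 10.6 over 330 to 2837 CPM. These spanned a wide range, with 29 cells (76.3%) at 10% of the mean for *Aqp8* and 27 cells (71.1%) for *Car4*. *Igfbp1* (chr11:7097785-7102549), a secreted protein that binds insulin-like growth factors, had a median of only 0.925 CPM and a highest value of 2414 CPM. It had a UMI in 19 of 38 cells (50%, 33.4 to 66.6) and reached 10% of its mean in 8 (21.1%).

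No UMI of *S100g*, *Aqp8*, *Car4* or *Igfbp1* was counted in the 72 d0 cells, which allows a share of cells with a UMI of up to 4.17% (3 of 72, for counting error only), and *Sox17* had 1 UMI in 1 of them. UMIs of all cells of a group were summed, with a floor of 3 UMIs over the d0 cells. Over this floor, the CPM at d20 was 201963-fold higher for *S100g*, 14145-fold for *Aqp8*, 8057-fold for *Car4* and 2142-fold for *Igfbp1*. The floor covers independent counting only, and spike-ins spread more than that, so these folds are not firm lower bounds. For *Igfbp1*, 4 cells held 93.7% of the d20 UMIs. The shallower d20 cells gave mean values of 11609 CPM for *S100g*, 1051 for *Sox17*, 645 for *Aqp8*, 508 for *Car4* and 89.3 for *Igfbp1*. All 34 of these had an *S100g* UMI, at a median depth of 60536 UMIs. All 67 d12 cells had one too, so this count does not show a high level. Cells 21 and 46 of the 34 had 818 and 596 CPM of *S100g* and no *Sox17*, and the other 32 had a median of 9382 CPM of *S100g*. By the shares at 10% of the mean, the label held for 4 of its 5 markers in most of the 38 cells, while *Igfbp1* marked a minority of them.

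**Figure D1:**
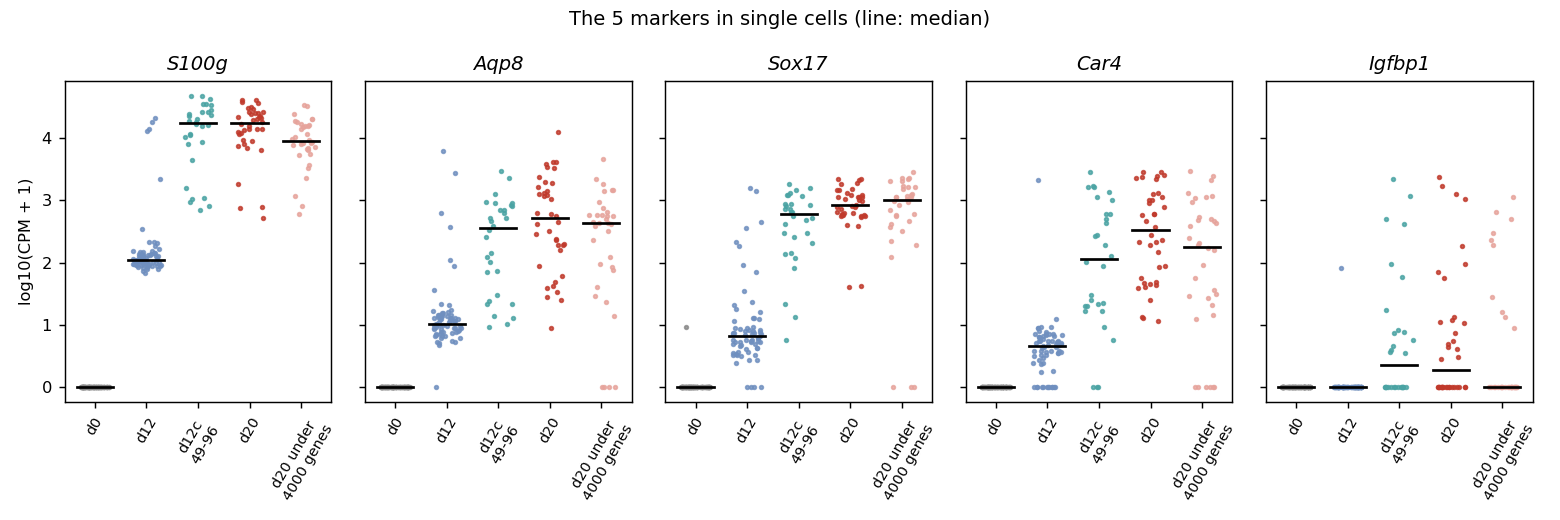
CPM of the 5 markers on a scale of log10(CPM + 1), 1 point per cell, in kept d0, d12, d12c (numbered 49 to 96) and d20 cells and in the d20 cells under 4000 genes, with the median as a line. *S100g* lies at 0 in d0, in a narrow band with a median of 110 CPM in 62 of 67 d12 cells, and at a median of 17434 CPM in d20, and *Igfbp1* splits the d20 cells.

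Cells numbered 10 and 12 stood apart from the other 36. *S100g* was 529 CPM in cell 10 and 745 CPM in cell 12, against a lowest value of 768 in the others. *Sox17* was 41.8 and 39.4 CPM, against at least 393, and *Cyp26a1* was 29.5 and 39.4 CPM, against at least 67.4. These cells were therefore the lowest for each of these 3 genes. They were the highest for *S100a6* (2036 and 1674 CPM, others up to 1267), *Anxa1* (1190 and 607, others up to 268) and *Tnfsf9* (875 and 1287, others up to 12.1), and the summed CPM of the XEN transcription factors listed below was 54.1 and 94.9 against at least 664. Cell 10 alone held *Stc1* at 1168, *Areg* at 406, *Prrx1* at 170, *Twist2* at 155 and *Col1a1* at 118 CPM, and its summed CPM of 14 fibroblast genes was 1092. Cell 12 had 144 CPM of these genes, within the range of the other cells (up to 494). Both were deep cells, with 406722 and 432020 UMIs. Cells 21 and 46, among those under 4000 genes, were alike in these genes, with 818 and 596 CPM of *S100g*, none of *Sox17*, 2845 and 2667 CPM of *S100a6* and 1067 and 1362 CPM of *Tnfsf9*. The other 32 shallower cells had at least 1174 CPM of *S100g* and at most 449 of *S100a6* and 47.2 of *Tnfsf9*. Cells 10 and 12 stay in the values below, and without them no count of list members past the limits used below changed by more than 1. Other values without them are given where they differ by over 1.5 times. Cells 2 and 37 had low *S100g* (1850 and 768 CPM) with *Sox17* inside the range of the rest (850 and 732 CPM).

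**Figure D2:**
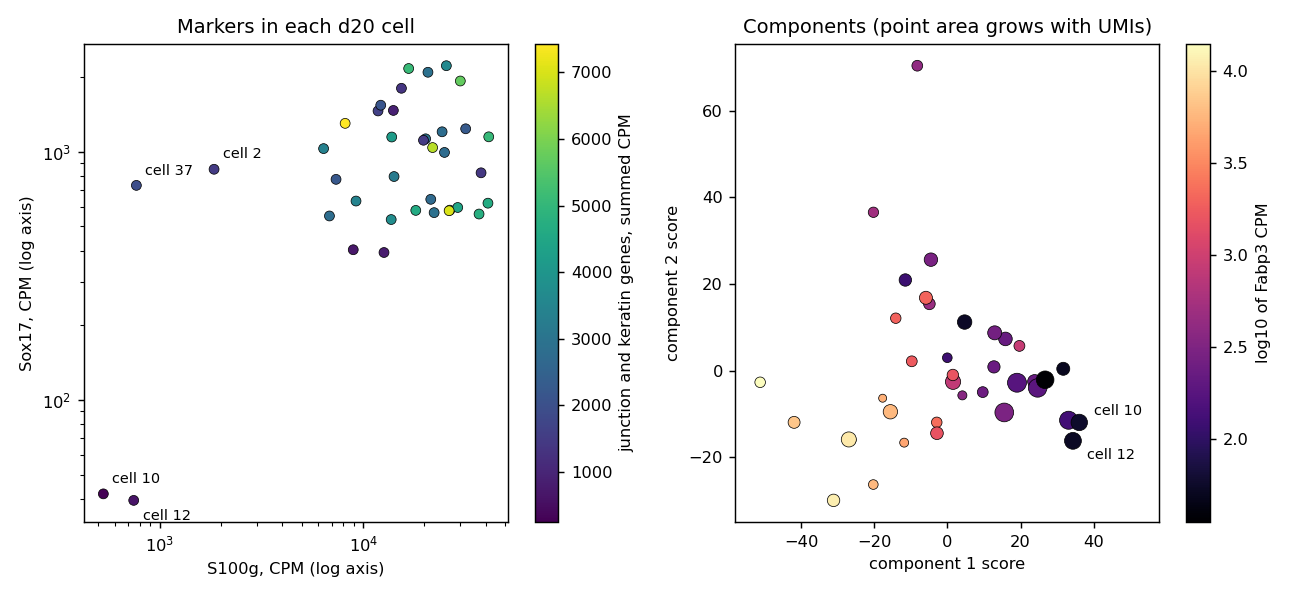
Left, *S100g* against *Sox17* CPM (log axes) in each of the 38 d20 cells, coloured by the summed CPM of 24 junction and keratin genes, and right, the scores of each cell on the first pair of components, coloured by log10 of the *Fabp3* CPM. Cells 10 and 12 lie at 41.8 and 39.4 CPM of *Sox17*, and cells with high *Fabp3* lie at low scores of component 1.

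The most abundant transcripts took a small share of each cell. Beside ribosomal protein genes (13.5% of UMIs at the median, against 12.2% at d0) and mitochondrial genes, the 15 genes with the highest mean took 7.80% of the UMIs of a cell at the median (4.83 to 15.5). After *S100g* (a mean of 18342 CPM) came the nuclear RNA *Malat1* (12996), the ferritin chains *Ftl1* (8568) and *Fth1* (5010), and *Rn45s* (6084), the precursor of ribosomal RNA. *Fth1*, which oxidises iron for storage, had 1616 CPM at d0, and *Ftl1* had 15842. The histone gene *H2afz* (3941), the actin-binding *Tmsb4x* (3403) and *Tmsb10* (3188), *H3f3b* (3277), *Ppia* (3009), *Ptma* (2637), *Gm1821* (2661), and the respiratory chain genes *Cox6b1* (2514) and *Cox4i1* (2449) followed. Several of these, among them *Ftl1*, *Fth1*, *Ppia*, *H3f3b* and *Gm1821*, have near-identical copies, so their share of the reads is uncertain. *Atp2b1*, the calcium pump of the plasma membrane, closed the 15 with 2426 CPM, against 239 CPM at d0 and 966 CPM in d12c cells. *S100g* and *Atp2b1* both handle calcium, and they went together among cells (Spearman 0.71, 38 cells, all of the same table, and both lower in deeper cells, at -0.45 with UMIs).

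To set the program against its starting point, the difference in mean log2(CPM + 1) between d20 and d0 was taken for the 9352 genes whose mean reached 1 on this scale in d20 or d0. The median over all these genes was -0.20, so values near it are no difference. Of them 410 were higher by over 2 (4.38%) and 834 were lower by over 2 (8.92%). When 10 was added in place of 1 before taking log2, these counts were 143 and 208. Every list below is read against these shares, and the members that passed the minimum did so through the group where they were high. For genes at 0 in every cell of 1 group the difference depends on this added value (the pseudocount). Setting them at the floor of 3 UMIs moved the median of the fibroblast list from -5.36 to -4.93 and that of any other list by at most 0.10. The lists are of background knowledge and were chosen with results of these cells known.

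The transcription factors of the XEN program came first in the order of roles. All 5 markers and 6 of the 9 factors (among them *Sox17*, *Sox7*, *Gata4*, *Foxa2* and *Sall4*) were higher by over 2, and 8 of 9 passed the minimum, with a median difference of 4.70. *Gata4*, which binds endoderm promoters beside Sox17, had a median of 91.4 and a mean of 122 CPM and a UMI in 89.5% of cells (2.78% at d0), with 84.2% of cells at 10% of the mean. *Sall4*, a zinc finger factor also known from stem cells, had a mean of 113 CPM and a UMI in 92.1% of cells, with 81.6% at 10% of the mean. *Sox7*, the close relative of Sox17, had 83.4 CPM. The remaining members were read in fewer cells. *Foxa2* had 28.6 CPM and *Gata6* 23.6 CPM, each with a UMI in 47.4% of cells and the same share at 10% of the mean, and *Gata6* was already at 9.24 CPM at d0. *Foxq1* had 21.6 CPM, and *Hnf4a*, the factor of the mature visceral endoderm and the liver, had a UMI in 1 of 38 cells. *Sox17*, *Sox7*, *Gata4* and *Sall4* had UMIs together in 28 of 38 cells (73.7%, 56.9 to 86.6), and all 4 reached 10% of their mean in 24 cells (63.2%, 45.99 to 78.2). At these levels a missing UMI does not show that the gene was silent. Among the 38 cells of 1 table the Spearman value was 0.16 for *Sox17* and *Gata4* and 0.14 for *Sox17* and *Sall4*, and 0.06 and 0.07 without cells 10 and 12.

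Of 10 surface and secreted XEN markers in the table, 4 were higher by over 2. *Cited1*, a coactivator without a DNA-binding domain, had a lowest value of 139, a median of 1763 and a highest value of 5397 CPM, against a mean of 7.02 CPM at d0. *Pdgfra*, the receptor that marks primitive endoderm, had a mean of 201 CPM (28.2 at d0), *Pth1r*, the parathyroid hormone receptor of parietal endoderm, 149 CPM (6.03 at d0) and *Lrp2*, the endocytic receptor megalin, 34.3 CPM (6.31 at d0). *Fst*, the antagonist of activin, was high in both, with 496 CPM at d20 and 325 CPM at d0. *Dab2*, the clathrin adaptor used to stain XEN cells, had a mean of 56.5 CPM at d20 and 55.1 CPM at d0, but 1 cell held 32% of its d20 UMIs and its difference in mean log2(CPM + 1), the measure used for the lists, was -1.48.

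Members of the parietal endoderm list were read broadly, and those of the visceral list mostly were not. All 16 parietal genes passed the minimum, 8 were higher by over 2 and 3 lower, with a median of 2.14. The summed CPM of the parietal list had a median of 5530 at d20, 3918 at d0 and 7889 at d12, so a high sum was not particular to d20. *Krt8* and *Krt18*, the keratin pair of simple epithelia, had means of 1155 and 780 CPM against 5.22 and 36.6 CPM at d0. *Col4a1* and *Col4a2*, which form type IV collagen, had 517 and 641 CPM (148 and 107 at d0), and the laminin chains *Lamb1* and *Lama1* had 323 and 94.8 CPM (71.6 and 0.904 at d0). *Sparc*, abundant in parietal endoderm but also in fibroblasts, had 1276 CPM at d20 and 1899 CPM at d0. The 3 members lower than at d0 were *Nid1* (6.84 against 102 CPM), a linker of laminin and collagen, *Plat* (9.31 against 73.4 CPM, and 3.94 without cells 10 and 12), the tissue plasminogen activator, and *Vim* (180 against 1311 CPM), the intermediate filament of mesenchymal cells. In the overlapping basement membrane list 5 of 15 genes were higher and 2 lower (*Nid1* and *Col18a1*), with a median of 0.47 over 12 that passed.

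Of 17 visceral endoderm genes, 2 passed the minimum and *Ihh*, a hedgehog ligand, was higher by over 2, with 30.9 CPM. No UMI was counted over all 38 cells for 11 of them, among them *Afp*, *Apoa1*, *Apob*, *Trf* and *Otx2*, and *Ttr* had UMIs in 1 cell. *Rbp4*, the retinol carrier, had 101 CPM with a median of 2.46 CPM.

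**Figure D3:**
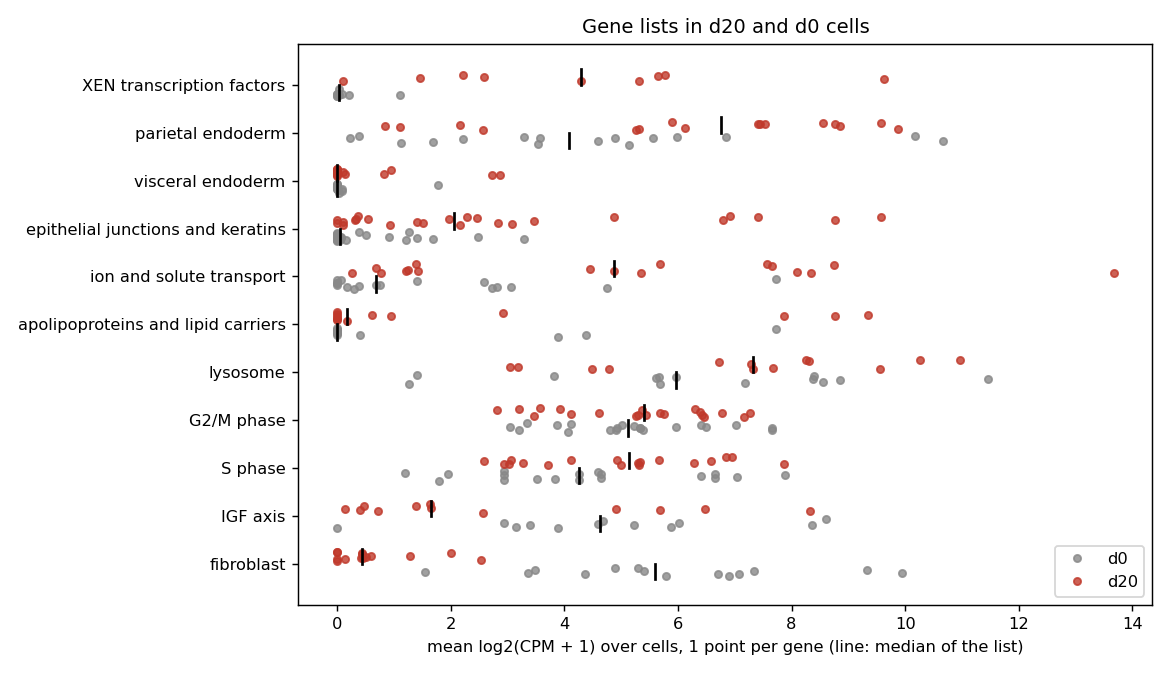
Mean log2(CPM + 1) of each gene of 11 lists in d20 and d0 cells, with the median of each list as a line. XEN factors and junction genes lie higher at d20, visceral endoderm genes lie near 0 in both groups, cell cycle lists overlap, and fibroblast genes lie near 0 at d20.

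Part of an epithelial program was read. Of 24 junction and keratin genes 17 passed the minimum, 12 were higher by over 2 and 1 was lower, with a median of 2.83. *Epcam*, an adhesion molecule of epithelia, had 284 CPM against 0.560 CPM at d0, the protease inhibitor *Spint2* had 234 against 1.73 CPM, and *Krt19* 283 against 47.3 CPM. *Cldn6*, a claudin of early embryonic epithelia, had a mean of 99.8 CPM but a median of 4.81 CPM, and *Cdh1*, encoding E-cadherin, had 26.0 CPM with a UMI in 47.4% of cells (42.1% at 10% of the mean) and none at d0. The member that was lower was *Jup*, plakoglobin (1.66 against 26.8 CPM). No UMI was counted at d20 for *Cldn3* and *Cldn4*. Mean log2(CPM + 1) at d20 was only 0.10 for *Grhl2*, 0.37 for *Esrp1*, 0.11 for *Pkp2* and 0.32 for *Tjp3*. Among the higher members, *Krt8*, *Krt18* and *Krt19* also belong to the parietal list.

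Genes of transport stood out by level. Of 17 ion and solute transport genes 7 were higher by over 2, *S100g*, *Aqp8* and *Car4* among them. *Slc2a3*, a glucose carrier with high affinity, had a lowest value of 17.2, a median of 457 and a highest value of 1453 CPM, against a mean of 4.69 CPM at d0. The sodium pump subunit *Atp1b1* had 286 CPM (34.1 at d0) and the carbonic anhydrase *Car2* 139 CPM (1.65 at d0). *Trpv6*, the calcium channel of the gut and placenta, had 20.3 CPM with UMIs in 29.0% of cells (26.3% at 10% of the mean) and none at d0. Of 13 lipid carriers 4 passed the minimum, and *Fabp3*, *Apoe* and *Fabp1* were higher by over 2. *Fabp3*, a fatty acid binding protein, had a mean of 2313 but a median of 429 CPM, and *Apoe* 918 and 409 CPM, so a part of the cells carried most of both. *Fabp5* had 526 CPM against 404 at d0, and 6 apolipoproteins of the list had no UMI. Lysosomal genes were high in both groups, with *Cd63* at 2259, *Ctsl* at 1498 and *Ctsb* at 822 CPM against 3030, 546 and 403 CPM at d0, and 1 of 13 (*Ctsz*) was higher by over 2. Of 10 endocytic receptors and adaptors *Lrp2* alone was higher by over 2, with a list median of -0.97.

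*Cyp26a1* (mm9 chr19:37772298-37776018), the enzyme that degrades retinoic acid and a known target of its receptors, had the second largest difference from d0 (10.16). It ran from 29.5 over a median of 2420 to 8780 CPM, and its mean was 2246 CPM against 0.0606 CPM at d0. At d12, under the same cocktail, its median was 5.55 CPM and its mean 83.55 CPM. The summed CPM of the list of retinoic acid handling had a median of 8114 at d12 and 2696 at d20. A part of the agonist in the d20 level was not tested. The promoter of *Cyp26a1* is shown because the cocktail holds a retinoic acid receptor agonist. These are the 250 bases before the start of the gene (RefSeq, GRCm38.p6 chr19:37697558-37697807, plus strand). Capitals mark the only match, on the opposite strand, to a direct repeat of AGGTCA or AGTTCA with 5 bases between the copies, the kind of element retinoic acid receptors bind, at -32 to -16 from the start.
Cyp26a1: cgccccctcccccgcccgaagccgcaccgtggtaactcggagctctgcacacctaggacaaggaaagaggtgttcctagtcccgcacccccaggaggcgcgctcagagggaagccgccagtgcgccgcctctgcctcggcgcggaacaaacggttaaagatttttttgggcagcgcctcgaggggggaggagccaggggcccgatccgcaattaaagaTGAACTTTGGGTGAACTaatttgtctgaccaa
Both strands of 32851 promoters (250 bases before to 50 after the start) were searched, and 13 (0.0396%) held this repeat. Of the matched genes 5 were in the count table, and apart from *Cyp26a1* they were not high at d20, with 33.9 CPM for *Blvrb* (45.4 at d0) and no UMI for *Ppbp*, *Tnfsf13b* and *Pcsk2os2*. A match is a run of letters and no sign of binding. Of 17 genes of retinoic acid handling *Cyp26a1* alone was higher by over 2 and 3 were lower (*Rarg*, *Crabp1* and *Dhrs3*), with a median of -0.09 over 12 that passed. *Crabp1*, which carries retinoic acid in the cytosol, was at 44.8 CPM (19.99 without cells 10 and 12) against 666 CPM at d0, and the receptor gene *Rarg* at 0.0609 CPM (0 without them) against 11.5 CPM.

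Growth factor genes differed in both directions. Of 12 genes of the insulin-like growth factor axis, all passed the minimum, 2 binding proteins were higher by over 2 (*Igfbp1* and *Igfbp2*) and 8 genes lower, with a median of -2.35. *Igfbp2* had 113 CPM (46.3 at d0), *Igf2*, the fetal growth factor, 243 against 588 CPM, and *Igfbp6* 0.275 against 153 CPM. *H19*, the noncoding neighbour of *Igf2*, had 596 CPM at d20 and 533 CPM at d0. Of 18 ligands and antagonists 4 were higher (*Bmp2*, *Dkk3*, *Wnt11* and *Ihh*) and 4 lower (*Bmp4*, *Inhba*, *Inhbb* and *Sfrp2*), with a median of -0.69 over 14 that passed. *Bmp2* had 99.4 CPM against 5.71, and *Inhba*, the activin subunit, 0.244 against 444 CPM. Of 12 imprinted genes 1 was higher (*Peg10*) and 3 lower (*Igf2*, *Cdkn1c* and *Dlk1*), with a median of -0.04, and *Meg3*, the noncoding RNA from the maternal chromosome, had 389 CPM against 220.

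Transcripts of dividing cells differed more among d20 cells than between their median and that of fibroblasts. Over all 38 cells, none of 20 G2/M genes was higher or lower by over 2, with a median of 0.04. Of 18 S phase genes 1 was higher (*Chaf1b*), with a median of 0.59. Summed CPM of the G2/M list ran from 134 over a median of 2738 to 8134 in d20 cells and from 62.8 over 2828 to 11255 in d0 cells. By cell number, the median of this sum was 2901 in the 16 d20 cells numbered 1 to 24, 1165 in the 14 numbered 25 to 48 and 4723 in the 8 numbered 49 to 72, and the list median against d0 was 0.21, -0.73 and 1.13. Against d0, 2 of 20 G2/M genes were lower by over 2 in cells 25 to 48. In cells 49 to 72, 6 were higher, and in cells 1 to 24 none passed. Over all d20 cells *Cdk1*, the mitotic kinase, had 291 CPM (423 at d0) and *Top2a*, the topoisomerase of dividing cells, 205 CPM (178 at d0). Of 7 inhibitors *Cdkn1c* and *Cdkn2b* were lower by over 2, and *Cdkn1a*, the p21 gene, had 1093 CPM against 2115. Of 13 glycolytic genes in the table *Hk2* was higher, with 230 against 60.7 CPM, and the list median was -0.17. *Eno1* was at 0, and whether its reads went to a near-identical copy was not tested. Of 15 immediate early and heat shock genes none was higher and *Ier3* was lower.

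Fibroblast genes were low. Of 14, 12 were lower by over 2 and none higher, with a median of -5.36, and the other 2 were *Thy1* (36.0 against 53.7 CPM) and *Fap* (no UMI at d20, 13.5 CPM at d0). *Col1a1*, the main chain of type I collagen, had 3.63 CPM (0.554 without cells 10 and 12) against 1237, and *Dcn*, *Postn* and *Osr1* had no UMI over the 38 cells. The summed CPM of the list had a median of 48.6 at d20 (0 to 1092) and of 3669 at d0 (96.5 to 14426). The 10 largest differences downward were *Acta2* (-10.20), *Col1a1*, *Anxa3*, *Tagln*, *S100a4*, *Prss23*, *Tm4sf1*, *Anxa1*, *Ccl2* and *Cav1* (-8.26). *Acta2*, smooth muscle actin, had 4.46 CPM (1.59 without cells 10 and 12) against 3668. These 10 genes had 1347 UMIs over 38 cells, of which 969 (71.9%) lay in cells 10 and 12, and without *Anxa1* 223 of 282 (79.1%). *Cav1*, the coat protein of caveolae, had none.

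The 10 largest differences upward were *S100g* (13.67), *Cyp26a1* (10.16), *Cited1* (9.61), *Sox17* (9.57), *Krt8* (9.20), *Srgn* (9.03), *Aqp8* (8.75), *Car4* (8.10), *Slc2a3* (7.66) and *Ifitm1* (7.66). *Srgn*, the proteoglycan of secretory granules, ran from 9.26 over a median of 812 to 4777 CPM against a mean of 0.235 CPM at d0. *Ifitm1*, an interferon-induced membrane protein found on early embryonic cells, ran from 12.1 over 469 to 3490 CPM against a mean of 9.14 CPM. Marker lists of other cell types gave single members. *Esx1*, a homeobox gene of the trophoblast, had 79.3 CPM with a UMI in 86.8% of cells (73.7% at 10% of the mean) and was the 1 of 11 trophoblast genes higher by over 2. *Pax6*, known from the eye and brain, had 45.3 CPM (1 of 7 neural genes) and *Lin28a* 28.3 CPM (1 of 14 pluripotency genes). Of 9 definitive and gut endoderm genes and 9 genes of endothelium and blood none was higher by over 2, and the median cell had a summed CPM of 0 for both lists. The summed trophoblast list had a median of 89.9 CPM at d20 and 1.86 CPM at d0.

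The other comparison was with d12c cells, picked from colonies and numbered 49 to 96 (30 kept, a median of 276240 UMIs, range chosen with earlier results known). Likeness to the remaining groups was not ranked. The d12c cells numbered 1 to 24 (21 kept) were left out. Their summed CPM of the 5 markers had a median of 261, against 18809 in those numbered 49 to 96. For the fibroblast list it was 6731 against 40.3. Likeness of d12c and d20 cells in the markers was therefore in part set by the range chosen. Against the d12c cells numbered 49 to 96, 8522 genes passed the minimum, with a median difference of 0.13. Of these 135 were higher by over 2 in d20 cells (1.58%) and 141 were lower (1.65%). These counts were 5 and 8 with a pseudocount of 10, and 610 and 275 in cells with at least 6000 genes. None of the 5 markers was among them, with differences of 0.27 for *S100g*, 1.15 for *Aqp8*, 1.09 for *Sox17*, 1.59 for *Car4* and 0.07 for *Igfbp1*, and *S100g* had a mean of 18608 CPM in d12c cells. Of the transcription factors *Gata6* alone was lower (23.6 against 75.3 CPM), and the list median was -0.16. Of the surface, parietal, visceral, basement membrane, S phase, endocytic, lysosomal, retinoic acid, ligand, glycolysis, trophoblast, pluripotency, gut, blood and neural lists no member passed the limit in either direction. G2/M genes were higher, with 4 of 20 past the limit (*Cdk1*, *Plk1*, *Ube2c* and *Kif20b*) and a median of 1.61. Their summed CPM had a median of 2738 in d20 cells and 1314 in d12c cells, but it lay below the d12c median in the d20 cells numbered 25 to 48 (1165), where 2 of 20 genes passed the limit with a list median of 0.63. In cells 1 to 24 the list median was 1.65, with 5 of 20 genes past the limit. In cells 49 to 72 it was 2.78, with 15 of 20 past the limit. Immediate early and heat shock genes were lower, with 4 of 15 past it (*Jund*, *Atf3*, *Dusp1* and *Nr4a1*) and a median of -1.79. Their summed CPM had a median of 1039 (411 to 3126) in d20 and 1681 (564 to 12383) in d12c cells.

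Other members past the limit against d12c cells were lower, namely the claudins *Cldn3*, *Cldn4* and *Cldn7* with *Jup* and *Crb3* of the junction list, *Igf2* (243 against 832 CPM), *Cdkn1c* (15.1 against 88.6), *Dcn* and the lactate carrier *Slc16a1* (61.9 against 122). *Fabp1* was higher (65.2 against 1.48). The 5 largest differences upward were *Alg3* (3.79), *Ccnf*, *Cdk1* (3.56), *Jade3* and *Yae1d1* (3.29). *Alg3*, a mannosyltransferase of protein glycosylation, had 134 against 36.1 CPM, and the cyclin *Ccnf* 70.4 against 13.5. The 5 largest downward were *Atf3* (-4.90), *Mgst1*, *Klf9*, *Pnrc1* and *Bhlhe40* (-3.66). *Atf3*, a stress-induced transcription factor, had 1.45 against 141 CPM, and *Mgst1*, a glutathione transferase of membranes, 1.99 against 250.

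The spread among the 38 cells was measured against the spike-in RNAs, which are not made by the cells and so show the technical spread. After scaling to the median depth, the squared coefficient of variation of 58 spike-ins followed 0.00334 + 13.2 / mean, where independent counting at the spike-in totals of these cells would give 1.71 in place of 13.2. Of 4802 genes with a mean of at least 5 UMIs, 931 (19.4%) lay at over 2 times this curve. Furthest above it, among genes with at least 20 UMIs a cell, were *Rn45s* (320 times), *Malat1* (95.95), *Tmsb4x* (95.8), *Fabp3* (72.6), *S100g* (52.8), *Aqp8* (51.0), *Clu* (46.5), *Apoe* (29.4), *Cd9* (28.9) and *Cyp26a1* (22.5). *Rn45s* had 78146 CPM in cell 40 and 32858 CPM in cell 52, with a median of 2725. *Clu*, a secreted chaperone, ran from 0 over 333 to 9478 CPM, and *Cd9*, a tetraspanin, from 40.3 over 657 to 7302 CPM. *Tmsb4x* was highest in cell 2 (22412 CPM), 12 and 10. The share over 2 times rose with abundance, to 646 of 1844 genes (35.03%) with a mean of at least 20 UMIs. All 4 lipid carriers with enough UMIs, 11 of 14 parietal, 8 of 11 junction and 11 of 20 G2/M genes lay over 2 times the curve, and with a mean of at least 20 UMIs these were 3 of 3, 10 of 10, 5 of 5 and 9 of 13. The 4 of 18 S phase genes (22.2%) and 1 of 6 XEN factors (16.7%) lay near the share of all genes, and at 20 UMIs they were 4 of 5 and 1 of 3. The factor over 2 times the curve was *Sox17* (4.35 times), against 1.87 for *Gata4* and 1.16 for *Sox7*. Its squared coefficient of variation was the lowest of these, at 0.314 against 1.038 and 0.948. Its mean was 192 UMIs against 23.9 and 16.3, so the multiple of the curve does not rank the spread of these factors. Without cells 10 and 12, 769 genes lay over 2 times the curve.

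**Figure D4:**
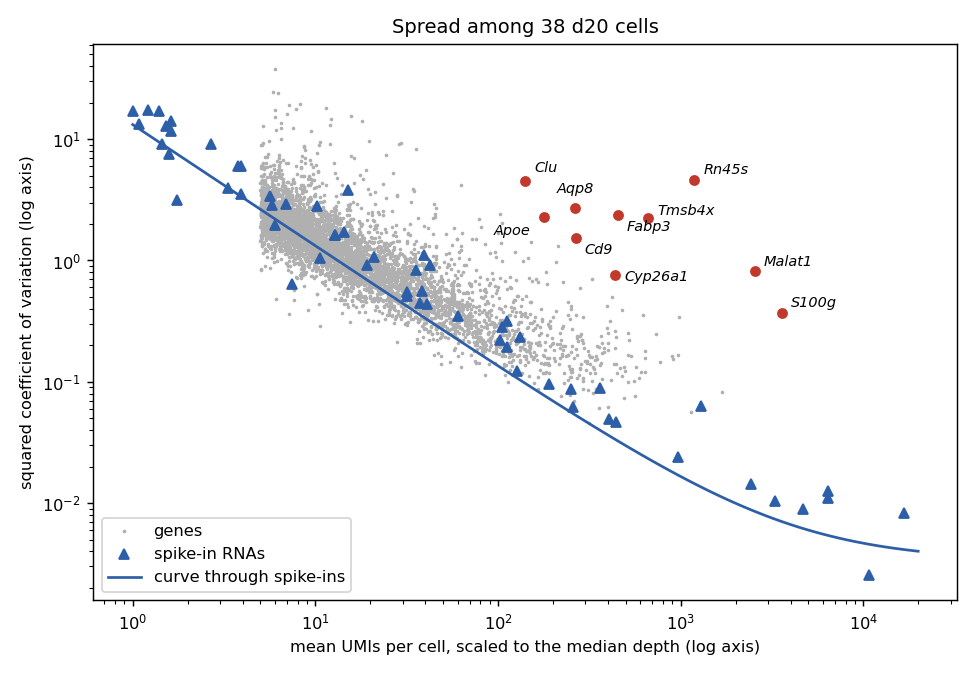
Squared coefficient of variation among the 38 d20 cells against the mean UMIs per cell (log axes) for genes, spike-in RNAs and the curve fitted to the spike-ins, with the 10 genes furthest above it named. *Fabp3*, *S100g* and *Aqp8* lie 72.6, 52.8 and 51.0 times above the curve.

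The first component of the 1000 genes furthest above the curve held 8.81% of their variance, and the next 2 held 6.26% and 5.26%. Among the genes at its upper end were *Tgfb2*, *Ccnd1*, *Lef1*, *Hprt*, *Mt2*, *Nrp2* and *Kif1a*, and at its lower end stood *Folr1*, *Fabp3*, *Nfatc1*, *Slc43a3*, *S100a13*, *Chst1*, *Adh1* and *Tinagl1*. *Lef1*, a mediator of Wnt signals, ran from 0 over a median of 36.6 to 952 CPM, and *Folr1*, a folate receptor, from 0 over 4.04 to 571 CPM. *Adh1*, an alcohol dehydrogenase that also acts on retinol, ran from 0 over 51.1 to 2622 CPM. The scores moved with depth, with Spearman 0.61 for UMIs and 0.65 for detected genes over the 38 cells, and the part of depth in this order was not tested. Cells 10, 12 and 2 had the highest scores. *Fabp3* reached 1000 CPM in 15 cells. The summed G2/M genes were at -0.43 with the second component and at -0.52 with the third. On the second, cell 22 had a score of 70.45, and the next cell 36.58.

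Among the markers, *S100g* went with *Aqp8* (0.61), *Cited1* (0.61) and *Cyp26a1* (0.59), and thinning every cell to 50000 UMIs, which 36 cells allowed, gave 0.63, 0.64 and 0.60. With *Sox17* it was at 0.21, and at 0.08 without cells 10 and 12. *S100g* and *Cyp26a1* were lower in deeper cells (-0.45 and -0.50 with UMIs). *Car4* went with *Fabp3* (0.65), *Aqp8* with *Cyp26a1* (0.64), and partner chains went together, with 0.72 for *Krt8* and *Krt18* and 0.66 for *Col4a1* and *Col4a2*. All of these are Spearman values over the same 38 cells of 1 table, which share the library preparation, and are descriptions.

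*Igfbp1* was carried by few cells. It reached 1000 CPM in 4 cells, with 1716 CPM in cell 22, 1056 in cell 36, 2414 in cell 65 and 1247 in cell 66. These held 1318 of its 1407 UMIs (93.7%), and no other cell was above 185 CPM. *Apoe* in these cells was 4658, 1342, 2696 and 7090 CPM, against a median of 331 CPM in the others, of which 4 had more than 1342. The Spearman value of both genes over all 38 cells was 0.45. The shallower d20 cells had an *Igfbp1* UMI in 29.4% (15.1 to 47.5).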

How the data were processed

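Single-cell RNA-sequencing counts of the C6FAE course were used. The authors split reads by barcode, trimmed them, aligned them to mouse transcripts (mm9) and collapsed duplicates that shared a UMI. The deposited counts are whole numbers of UMIs per gene and cell. The aligner is not given in the sources used here. The table held 23197 genes and 92 ERCC spike-ins. Here 4 entries of repeated names were left out, and 22 names turned into dates were kept as genes. A minimum of 4000 detected genes was set per cell. CPM left out spike-ins, and log2 values used a pseudocount of 1.

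Members, gene lists and the d12c number range were chosen with earlier results of these data known. Named genes were the 5 markers, the highest members of each list and those against it, the 15 genes with most UMIs, the 10 and 5 largest differences from d0 and d12c, the 10 genes furthest above the spike-in curve and 8 genes at each end of component 1. Some genes that this rule named are not reported here. Genes named for cells 10 and 12, *Apoe* beside *Igfbp1*, and those of calcium handling were chosen after their values were seen.

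No test was run, since cells are not replicates. Shares have exact Clopper-Pearson intervals at 95%. Doublets were not called. Cells were picked by hand, but this does not exclude mixed cells. Both *Xist* and Y-linked UMIs were read in 1 d20 cell and 7 d0 cells, and the source was not tested. Alternatives covered filters, scaling, pseudocount, thinning and single groups of cells. The limit on differences and the spike-in curve were run on simulated data as a check of the code only. For the curve these data were drawn from the same form that was then fitted. For the limit they were drawn without the extra spread seen in the spike-ins. Neither shows how well the methods hold for these cells. Python 3.11.15, numpy 2.4.6, pandas 2.3.3, scipy 1.17.1 and matplotlib 3.10.9 were used, and edgeR 4.0.16 under R 4.3.3 gave TMM factors. Gene positions are from GENCODE M1 (NCBIM37, mm9), counted from 1.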

Additional observations from a re-analysis of the deposited data

How the results depend on the processing

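Over 46 alternatives for the 4 counts of genes past 2 (log2), 26 stayed within 1.5 times the count given and 20 did not. The 410 genes higher than d0 became 215 with no filter on cells, 143 with a pseudocount of 10, 1054 (beside 1213 lower) with the log2 of mean CPM, 821 with TMM scaling and 646 with d20 cells numbered over 48 only, and the 834 lower became 208 with a pseudocount of 10. Against d12c, the 135 higher became 82 with no filter, 46 with at least 2000 genes, 610 with at least 6000, 5 with a pseudocount of 10, 581 with the log2 of the mean, 507 with TMM and 389 with cells over 48. The 141 lower became 63 with no filter, 275 with at least 6000 genes, 8 with a pseudocount of 10, 514 with the log2 of the mean, 714 with TMM, 353 with cells over 48 and 304 with all kept d12c cells. The cause of these shifts was not tested. Of 30 alternatives for marker shares 7 moved. These were *Car4* (82.4% in shallower cells, 71.1% at 10% of the mean), *Aqp8* (88.2% and 76.3%) and *Igfbp1* (29.4%, 21.1% and 30.6% after thinning). The 931 variable genes became 1763 at 1.5 times and 240 at 4 times the curve and 2828 in cells with at least 6000 genes. Component 1 (8.81%) became 9.61% with unit variance, 21% with at least 6000 genes, 9.70% after thinning, 11.3% with 500 genes, 7.34% with 2000 and 8.26% without cells 10 and 12. Of 512 alternatives for mean CPM of 64 named genes 494 moved by less than 1 SD over cells, but 120 moved by over 1.5 times. These included 31 genes in the 12 cells with at least 6000 genes (*Aqp8*, *Car4*, *Cyp26a1* and *Fabp3* among them), 33 in the shallower cells (*S100g*, *Aqp8*, *Car4* and *Igfbp1* among them) and 24 in cells over 48. Cells near 4000 genes and low transcripts limit what a missing UMI can show. Leaving out cells 10 and 12, the 10% share, the ranges of cell number and the minimum of 20 UMIs were chosen after seeing the data. No paired analysis was possible because cells carry no replicate number and could not be assigned to batches.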

Other observations

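Genes of calcium transport beside *S100g* and *Atp2b1* were chosen after their values were seen. *Trpv6*, the entry channel, reached at most 428 CPM, the vitamin D receptor gene *Vdr* had a mean of 3.17 CPM and *Calb1*, the larger calbindin, 0.144 CPM.

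Transcripts of X inactivation and of the Y chromosome divided the d20 cells. With at least 3 UMIs as the limit, 12 of 38 d20 cells had UMIs of 4 Y-linked genes without *Xist*, 9 had *Xist* without them, 1 had both and 16 had neither. The 9 were cells 1, 2, 6, 16, 22, 24, 31, 33 and 48. The 12 were cells 12, 28, 30, 35, 36, 37, 41, 42, 51, 52, 58 and 65, so the kinds lay unevenly over the cell numbers. At d0 these were 21, 28, 7 and 16 of 72 cells.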
